A study of Mus musculus with 12 samples.

Results

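The data described here follow mouse embryonic stem cells (ESCs) with a knockdown of circKat6b-e2 as they differentiated into embryoid bodies (EBs). The comparison joins the 2 deposited gene count tables on the gene identifier and takes the 3 knockdown EB libraries at day 6 against the 3 knockdown ESC libraries, which is 6 of the 12 libraries of the series, over all 52636 genes. The cells were E14, a mouse ESC line derived from the blastocyst. Knockdown (KD) cells carried shcircKat6b-e2, a short hairpin RNA against a circular RNA that takes its name from the gene Kat6b, and wild-type (WT) cells, also with 3 libraries at each stage, enter the same fit and are described here only where the change in KD cells is set against that in WT cells. ESCs were kept on gelatin in serum with LIF, the MEK inhibitor PD0325901 and the GSK3 inhibitor CHIR99021. The labels give the EBs as differentiated for 6 days, with no further detail of the protocol, and name embryonic stem cells as the source of both stages. They leave unsaid if the KD line came from 1 clone or from many cells, and if WT cells carried a control hairpin, so a difference between KD and WT cells and a difference between 2 cell populations cannot be told apart. Libraries were made from RNA bound to poly-T beads, and a circular RNA has no poly(A) tail, so these data hold no level of the circular RNA.

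An ESC line in LIF with both inhibitors resembles the naive epiblast of the blastocyst, where Pou5f1, Sox2 and Nanog sustain a network of factors such as Esrrb, Klf2 and Zfp42. When cells aggregate without these supports, the network is shut down, a formative state is passed, and cells begin to resemble primitive streak, mesoderm, endoderm and ectoderm, with a layer of extraembryonic endoderm at the surface. An EB is therefore a mixture, and in a bulk library a change in the share of a cell type and a change in the RNA per cell cannot be told apart.

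Total counts per KD library, in units of 1000000, were 25.4, 28.3 and 30.1 in ESCs and 32.1, 30.3 and 32.7 in EBs, and 18975 genes passed the filter on low counts and were tested. Replicates of a KD stage differed by more than sampling noise (chi-square per gene 4.78 to 7.9) and no pair held identical values. One WT library, ESC WT replicate 2, stood apart from its replicates (chi-square per gene 55.37 and 55.98) and, as 1 of the 12 libraries fitted together, bears on the spread and the filter behind every call. Without it 15874 genes were called between the KD stages, against 15142 with it. Levels are CPM (counts per 1000000 counts) scaled by TMM factors, and folds are log2 differences of EBs minus ESCs from edgeR's quasi-likelihood fit. The standard error (SE) is the size of the fold divided by the square root of its F statistic, with the spread estimated over all 12 libraries. Near 0 counts the fold depends on the prior count, so there the SE does not measure its precision. A gene is called where its edgeR adjusted p, corrected over all tested genes, was under 0.05.

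Of the 18975 genes tested, 15142 differed between KD EBs and KD ESCs, a background of 79.8%, with 8055 higher in EBs (42.5%) and 7087 lower (37.3%). With a difference of at least 1 log2 unit as well, 6119 were higher (32.2%) and 5067 lower (26.7%). Most genes therefore passed the test, and the counts of the gene groups below are read against 42.5% higher and 37.3% lower. The KD libraries of the 2 stages did not overlap for 15865 of the tested genes (83.6%). A lack of overlap, given below for single genes, is therefore the common case. A further test asked if the change of a gene differed between KD and WT cells. The KD change was called above the WT change for 12.8% of all tested genes and below it for 10.2%. Counts of this test in the gene groups below are read against these shares. The median log2 difference over all tested genes was 0.15. It was 0.52 when libraries were scaled by their totals alone, so directions below are relative to the TMM scale.

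Long genes rose and short genes fell. With the tested genes in 10 equal bins by exon length, the median log2 difference climbed from -1.36 for the shortest (45 to 879 bases) to 1.47 for the longest (8783 to 123179 bases), with 17.9% of the shortest and 77.5% of the longest called higher. The shortest bin held 7.39% to 7.76% of the counts in KD ESCs and 2.14% to 2.29% in KD EBs. The longest bin held 6.55% to 6.77% and 17.3% to 18%. WT cells had a similar range of medians, from -1.44 to 1.38. Stage and count table coincide in this series, so a trend that comes with the stage and one that comes with the handling of the libraries cannot be told apart. Its part in the results below was not tested, but each group's count was recomputed with every library's trend of level on length removed, an alternative chosen after seeing the data, and is given where it moved a list's count by more than 1.5 times or turned its median. For lists with 1 call or none in a direction, the 2-cell-like state lost its only lower member, smooth muscle gained 1, and the macrophage list had 2 lower in place of 1. The plot of list medians against length shows which groups lie on the trend and which lie far from it.

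**Figure D1:**
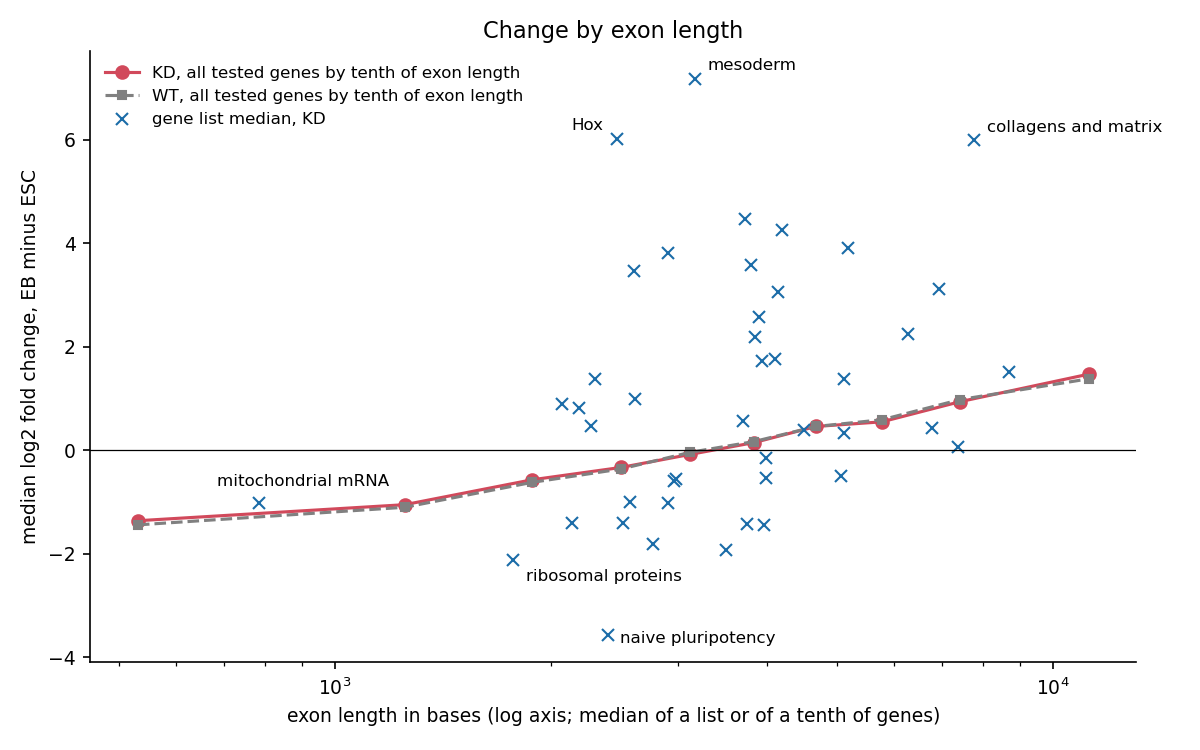
Median log2 difference of EBs minus ESCs in KD cells (y axis) against exon length in bases (x axis, logarithmic), for 10 bins of all tested genes and for the gene lists. The bins climb from -1.36 to 1.47. The mesoderm, Hox and collagen lists lie above the bins at their length, and the naive pluripotency list lies below them.

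Regulatory sequence is shown ahead of the values for pluripotency and matrix genes, muscle genes and ribosomal protein genes. Promoter windows of 300 bases were taken from RefSeq on GRCm38.p6, and 32851 windows were searched on both strands for the octamer ATGCAAAT, the element bound by POU factors such as Pou5f1, and for the CArG box, the element of serum response factor in contractile genes. The octamer was found in 570 windows (1.74%) and the CArG box in 535 (1.63%). Of the naive pluripotency genes with a window, 1 of 14 held the octamer, and so did 0 of 12 core pluripotency genes and 2 of 13 genes of the collagen and matrix list. The CArG box was found in 1 of 7 smooth muscle and 3 of 20 cardiac muscle genes. A match describes these letters only, and no match says only that they are not in the window. The first pair shows an octamer in a gene that fell and in one that rose, and the other 3 show the CArG box in muscle genes that moved in both directions. Each run is 130 bases of the gene's own strand with the motif in capitals, and the Zfp42 octamer reads on the opposite strand.
Zfp42, chr8:43307126-43307255, minus strand: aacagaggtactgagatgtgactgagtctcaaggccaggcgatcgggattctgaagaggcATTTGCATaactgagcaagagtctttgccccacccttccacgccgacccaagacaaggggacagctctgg
Col3a1, chr1:45311330-45311459, plus strand: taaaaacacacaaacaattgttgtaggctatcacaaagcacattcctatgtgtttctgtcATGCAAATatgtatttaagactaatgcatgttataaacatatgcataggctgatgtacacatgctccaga
Actc1, chr2:114052876-114053005, minus strand: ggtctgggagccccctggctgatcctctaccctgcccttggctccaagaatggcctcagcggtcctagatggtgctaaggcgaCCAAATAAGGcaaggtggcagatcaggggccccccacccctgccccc
Myl9, chr2:156775243-156775372, plus strand: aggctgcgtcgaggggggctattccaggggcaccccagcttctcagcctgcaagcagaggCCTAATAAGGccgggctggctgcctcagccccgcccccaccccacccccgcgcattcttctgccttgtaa
Myl7, chr11:5898783-5898912, minus strand: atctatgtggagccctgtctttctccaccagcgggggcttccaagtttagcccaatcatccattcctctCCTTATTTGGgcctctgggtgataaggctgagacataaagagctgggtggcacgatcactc

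Genes of cytosolic ribosomal proteins, which fell as a body, are known for a 5' terminal pyrimidine tract, a run of C and T at the start of the transcript through which their translation is regulated. A C followed by at least 5 pyrimidines, beginning within 5 bases of the RefSeq start, was found in 25 of 57 ribosomal protein genes with a window (43.9%) and in 3352 of all 32851 windows (10.2%). The list is counted in genes and the background in windows. In the 6 examples, from the 15 bases before the start to the 15 from it on, the tract is in capitals.
Rps6, chr4:86857353-86857382, minus strand: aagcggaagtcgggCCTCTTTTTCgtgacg
Rps15a, chr7:118116133-118116162, minus strand: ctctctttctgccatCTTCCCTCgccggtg
Rpl28, chr7:4792950-4792979, plus strand: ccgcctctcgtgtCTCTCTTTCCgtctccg
Rps10, chr17:27635230-27635259, minus strand: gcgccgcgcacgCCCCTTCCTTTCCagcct
Rpl27a, chr7:109519180-109519209, plus strand: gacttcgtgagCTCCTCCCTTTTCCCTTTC
Rpl38, chr11:114668565-114668594, plus strand: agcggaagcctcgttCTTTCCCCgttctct

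Kat6b, the host gene, encodes a histone H3 acetyltransferase and lies at chr14:21481434-21672478 on GRCm38. Its linear transcripts stood at 106, 98.6 and 106 CPM in KD ESCs and at 62.3, 62.0 and 60.5 CPM in KD EBs. All EB libraries lay below all ESC libraries, and the gene fell by 0.75 on the log2 scale (SE 0.09, edgeR adjusted p = 8.91e-07). With the length trend removed the fall was deeper, at -2.52. WT cells went from 78.6 to 30.0 CPM, a steeper fall, and the difference of the changes was 0.64 (SE 0.12, edgeR adjusted p = 0.00166), a call lost with library totals alone (0.49). A gene count holds all transcripts of the locus and does not check the knockdown of the circular RNA. Of the 9 genes of the acetyltransferase complex, 5 were higher and 3 lower, with Kat6a, the paralogue, rising from 21.4 to 118 CPM and Brd1, a scaffold subunit, from 41.4 to 120 CPM, log2 differences of 2.47 and 1.53 that were 1.28 and 0.49 with the length trend removed. With the length trend removed, 4 were higher and 5 lower and the list's median turned from 0.43 to -0.28.

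The naive network was shut down in KD EBs but not emptied. Of 22 naive genes 21 fell, 19 of them by at least 1 log2 unit, with a median of -3.56, and their summed level went from 9940 to 10600 CPM in ESC libraries to 790 to 817 CPM in EB libraries. The list's count and median changed little with the length trend removed (20 lower, median -3.61). Esrrb, an orphan nuclear receptor that activates naive genes, stood at 572, 601 and 596 CPM in KD ESCs and at 32.3, 41.7 and 36.1 CPM in KD EBs, a log2 difference of -4.01 (SE 0.10, edgeR adjusted p = 2.2e-14). Klf2, a zinc finger factor sustained by MEK inhibition, stood at 610, 679 and 642 CPM and then at 24.1, 25.7 and 25.6 CPM, a difference of -4.68 (SE 0.07, edgeR adjusted p = 1.06e-16). No EB library of either gene came near an ESC library. Zfp42, whose octamer is printed above, fell from 541, 517 and 546 CPM to 44.4, 46.9 and 44.4 CPM. Dppa5a, an RNA-binding protein of early embryos, had the deepest fall among the defining naive genes, from a mean of 5000 to 139 CPM (-5.16, SE 0.14), and Prdm14, a repressor of differentiation genes, went from 42.2 to 2.27 CPM.

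Several naive genes stood above their level in WT EBs. The fall was less deep in KD than in WT cells for 17 of the 22 genes, by the test of the difference itself, and deeper for 0, where 12.8% of all tested genes were above and 10.2% below. Klf2 stood at 3.52, 4.50 and 3.84 CPM in WT EBs, and the difference of the changes was 2.47 (SE 0.10, edgeR adjusted p = 7.82e-10). Esrrb stood at 5.26, 6.53 and 5.12 CPM there (2.40, SE 0.14, edgeR adjusted p = 3.58e-08). In both, every KD EB library exceeded every WT EB library. Nr0b1, a nuclear receptor of the naive network, fell by 3.89 in KD cells, to 4.96 CPM, with a difference of 5.02 from the change in WT cells. Nanog did not follow this pattern: it fell from 536 to 45.4 CPM in KD cells and from 558 to 46.6 CPM in WT cells, a difference of 0.02 that did not pass (edgeR adjusted p = 0.901).

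The exception to the fall was Dppa3. This gene, a maternal factor that protects imprints, stood at 2.93, 4.15 and 3.68 CPM in KD ESCs and at 5.95, 5.65 and 6.37 CPM in KD EBs (0.74, SE 0.27, edgeR adjusted p = 0.0221). The call was lost without ESC KD replicate 1 (0.55), ESC KD replicate 3 (0.69) or EB KD replicate 3 (0.70). In WT cells Dppa3 went from 5.36 to 0.714 CPM, and the difference was 3.63 (SE 0.41). Tbx3, which also acts in mesoderm and extraembryonic endoderm, fell by 0.34, from 307 to 243 CPM, but was at 0.03 with scaling by library totals alone and at -1.11 with the length trend removed. Dppa3 was at 1.72 with that trend removed.

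**Figure D2:**
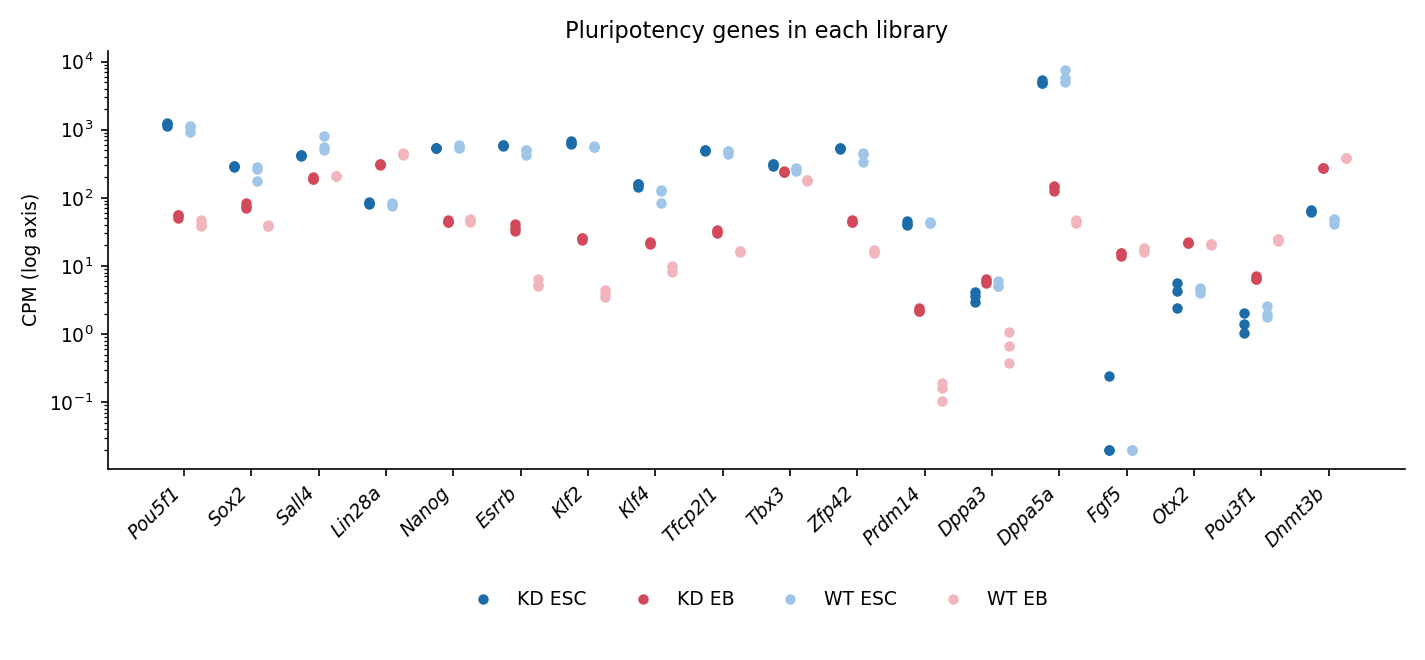
Level of pluripotency genes in CPM (y axis, logarithmic), 1 dot per library, for KD ESCs, KD EBs, WT ESCs and WT EBs, with 0 drawn at 0.02 CPM. Esrrb, Klf2 and Prdm14 are lower in EBs of both genotypes and lower in WT than in KD EBs, Sox2 keeps 70.8 to 83.8 CPM in KD EBs, and Lin28a, Otx2 and Dnmt3b are higher in EBs.

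Among 16 core genes, 12 fell and 4 rose, with a median of -1.44. Pou5f1, the POU factor of pluripotency, stood at 1260, 1210 and 1130 CPM in KD ESCs and at 50.5, 56.1 and 56.6 CPM in KD EBs (-4.46, SE 0.10, edgeR adjusted p = 2.13e-15). Sox2, its partner, which neural cells also express, stood at 289, 281 and 293 CPM and then at 70.8, 83.8 and 76.7 CPM (-1.90, SE 0.13, edgeR adjusted p = 9.33e-09). In both genes every EB library lay below every ESC library. Lin28a, which blocks maturation of let-7 microRNAs, rose instead, from 84.2 to 312 CPM (1.89, SE 0.05). Rif1, a replication timing factor, rose by 1.45, but by 0.12, no longer a call, with the length trend removed. With the length trend removed, 2 core genes were higher and 12 lower.

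Formative genes rose. Of 17, 14 rose and 3 fell, all by at least 1 log2 unit, with a median of 2.19. Fgf5, the growth factor that marks the postimplantation epiblast, was absent from 2 of 3 KD ESC libraries (0, 0.24 and 0 CPM) and reached 15.6, 15.7 and 14.0 CPM in KD EBs. Otx2, which drives the exit from the naive state, stood at 2.40, 5.71 and 4.24 CPM and then at 22.6, 21.5 and 21.5 CPM (2.40, SE 0.21, edgeR adjusted p = 2.44e-08). The ranges of both genes did not overlap between the stages. The de novo methyltransferases Dnmt3a and Dnmt3b rose from 35.8 to 164 CPM and from 64.8 to 272 CPM, although the log2 difference of Dnmt3a, 2.19, was 0.43 with the length trend removed. The lineage factors Sox4 and Sox11 rose by 6.58 and 5.82, although 54.6% of the exon bases of Sox4 are shared with another gene. Tcf15, a factor of the earliest formative cells, fell by 3.99, Nodal by 2.18 and Etv4 by 1.33.

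Genes of the 2-cell-like state were near the detection limit in KD cells at both stages, with a summed level of 2.68 to 3.10 CPM in ESCs and 2.90 to 3.71 CPM in EBs. Zscan4c stood at 0.183 CPM in KD ESCs and 0.335 CPM in KD EBs and did not pass the test, while WT cells went from 2.27 to 0.262 CPM. The Zscan4 genes are near-identical copies, so their separate counts are uncertain.

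Primitive streak genes changed in both directions, 11 higher and 5 lower of 18. T (Brachyury), which specifies the streak, stood at 1.20, 1.28 and 1.44 CPM in KD ESCs and at 6.35, 5.48 and 7.23 CPM in KD EBs (2.28, SE 0.25, edgeR adjusted p = 4.72e-07). Mixl1, a homeobox factor of mesendoderm, went from 0.266, 1.12 and 0.442 CPM to 8.74, 8.32 and 8.29 CPM (3.78, SE 0.40, edgeR adjusted p = 2.56e-07). Eomes, a T-box factor for endoderm and mesoderm, rose from 7.45 to 31.4 CPM. These 3 factors were higher in every EB library but remained at low levels at day 6. In WT cells Mixl1 stood at 0.885 and 1.25 CPM, and the difference of the changes was 3.29 (SE 0.55, edgeR adjusted p = 0.000525). Mesp1, which marks nascent cardiac mesoderm, stood at 0.386 and 0.342 CPM and did not pass. Cdx1, a WNT target, fell from 146, 158 and 148 CPM to 0.592, 0.287 and 0.747 CPM, and Tdgf1, the NODAL co-receptor, from 728 to 25.9 CPM. Lhx1, an organizer factor, had 0 counts in KD ESCs and 9.96 CPM in KD EBs.

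Mesoderm genes carried some of the steepest rises. Of 26 listed, 23 were tested, 19 rose and 2 fell, with a median of 7.18, or 6.52 with genes at 0 counts in ESCs set to their bound. Their summed level went from 20.7 to 23.6 CPM in ESC libraries to 1690 to 1760 CPM in EB libraries. Hand1, a factor of extraembryonic and lateral plate mesoderm, stood at 0.0888, 0.0799 and 0.295 CPM in KD ESCs and at 510, 520 and 498 CPM in KD EBs (11.60, SE 0.18, edgeR adjusted p = 2.32e-16). Hand2, its relative in heart and limb, had 3 counts over the ESC group and stood at 107, 114 and 112 CPM in EBs. Its ratio was 2758, with a Poisson counting interval of 944 to 13400 that is too narrow, as mates were counted separately. Both genes were off or nearly off in ESCs and uniform across the EB libraries. Prrx1, a limb and head mesenchyme factor, had 0 counts in the ESC libraries and 43.7, 44.7 and 44.0 CPM in EBs, at least 1099-fold higher against a floor of 3 counts over the group. Foxf1 (splanchnic mesoderm) reached 82.6 CPM, Tbx20 (heart) 163 CPM and Pdgfra, a receptor of mesenchymal progenitors, 296 CPM.

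The paraxial markers Tbx6 and Meox1 did not share these rises. Tbx6 went from 2.35 to 1.39 CPM and Meox1 from 0.613 to 0.382 CPM, neither past the test, and Msgn1 and Meox2 did not pass the filter. Foxc1 and Foxc2, which paraxial mesoderm also expresses, went the other way, at 3.61 and 4.28 with the length trend removed. Tbx1, of pharyngeal mesoderm, fell by 2.33. Twist1, which promotes mesenchyme, rose from 0.935 to 171 CPM in KD cells, and its change exceeded that in WT cells by 2.09 (SE 0.55, edgeR adjusted p = 0.0165), where EBs reached 27.4, 27.9 and 30.4 CPM. That call was lost with no filter (2.08) and without ESC WT replicate 3 (1.33). Isl1, of the second heart field, rose from 0.0695 to 17.9 CPM.

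Contractile genes of smooth muscle rose while those of the heart were mixed. Of 11 smooth muscle genes 9 rose and 0 fell. Acta2, smooth muscle actin, stood at 0, 0.16 and 0.147 CPM in KD ESCs and at 450, 460 and 468 CPM in KD EBs (12.02, SE 0.16, edgeR adjusted p = 6.51e-16). The adult isoform Myh11 did not pass, at 0.763 and 0.644 CPM. Tagln, another early marker, reached only 0.622 CPM, and 67.9% of its exon bases are shared with another gene, so its count is uncertain. Myl9, printed above for its CArG box, rose from 0.241 to 30.2 CPM.

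Of 18 cardiac genes tested 9 rose and 6 fell. Actc1, cardiac actin, with 2 counts over the ESC group, stood at 11.4, 11.7 and 11.6 CPM in EBs. Myl7, the atrial light chain, went the other way, from 35.6, 32.3 and 30.0 CPM to 0.780, 1.09 and 0.907 CPM (-5.14, SE 0.24, edgeR adjusted p = 1.37e-11), although both genes hold the CArG box. Tnnt2, cardiac troponin T, was at 2.01 CPM and Nkx2-5, the cardiac homeobox factor, at 4.98 CPM in KD EBs. The change of 8 of the 18 genes was below that in WT cells and that of 0 above. Among these was Tnnc1, cardiac troponin C, with 2.55 CPM in the KD EBs against 24.7 CPM in WT (-2.72, edgeR adjusted p = 7.21e-05).

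Endothelial genes rose in KD EBs, 14 of 19, with 3 lower and a median of 4.26. Flt1, a VEGF receptor, stood at 0.355, 0.240 and 0.295 CPM in KD ESCs and at 127, 128 and 124 CPM in KD EBs (8.73, SE 0.27, edgeR adjusted p = 3.28e-13). Kdr, the main VEGF receptor and also a mark of lateral mesoderm, rose from 0.552 to 68.8 CPM. Cdh5, the endothelial cadherin, had 0 counts in ESCs and 6.24, 5.19 and 5.44 CPM in EBs, at least 140-fold higher. All EB libraries of these 3 genes lay above all ESC libraries. Pecam1, which ESCs also express, fell from 96.1 to 14.1 CPM, and Eng from 152 to 9.24 CPM. The median change of the list was 0.00 in WT cells, and 9 of its genes changed more in KD cells and 1 less. Tek, the angiopoietin receptor, stood at 11.3, 14.0 and 11.3 CPM in KD EBs and at 3.33, 2.70 and 3.60 CPM in WT EBs (log2 difference 2.99, SE 0.42, edgeR adjusted p = 0.000106).

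Blood genes stayed low. Of 13 tested 4 rose and 5 fell, and their summed level was 33.8 to 35.6 CPM in ESCs and 35.6 to 36.2 CPM in EBs. Runx1, a factor of blood stem cell emergence, rose from 1.69 to 13.9 CPM (3.03, SE 0.26), or by 1.58 with the length trend removed. Tal1 reached 1.89 CPM. The embryonic globins Hba-x, Hbb-bh1 and Hbb-y did not pass the filter, with 0.13, 0.284 and 0.0725 CPM in KD EBs.

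**Figure D3:**
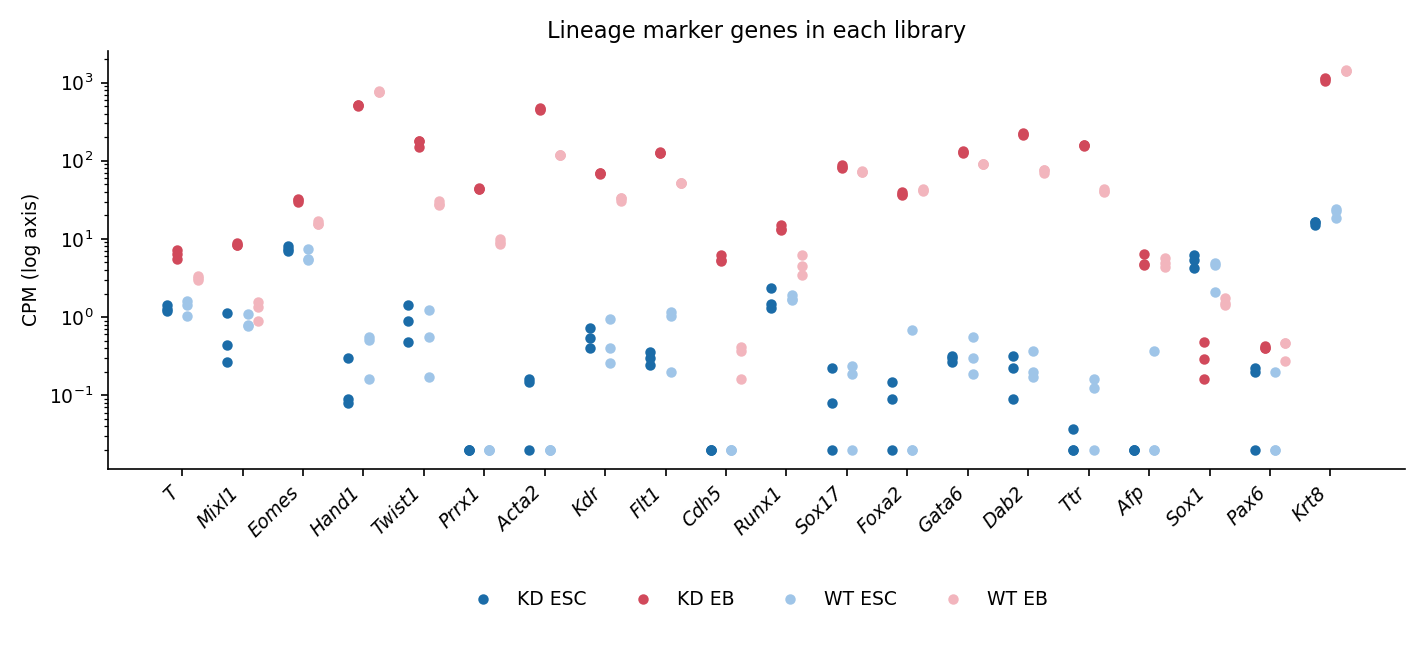
Level of lineage genes in CPM (y axis, logarithmic), 1 dot per library, for KD ESCs, KD EBs, WT ESCs and WT EBs, with 0 drawn at 0.02 CPM. KD EB libraries of Hand1, Acta2, Flt1, Sox17, Gata6 and Krt8 lie far above the KD ESC libraries, those of Sox1 lie below them, and Pax6 reaches at most 0.427 CPM in KD cells.

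Endoderm genes rose in both branches. Of 14 tested genes of definitive endoderm and gut, 11 rose and 2 fell. Sox17, the endodermal SOX factor, stood at 0, 0.0799 and 0.221 CPM in KD ESCs and at 82.4, 89.3 and 81.8 CPM in KD EBs (9.57, SE 0.29, edgeR adjusted p = 1.23e-13). Foxa2, a pioneer factor of endoderm, rose from 0.0787 to 37.9 CPM and Foxa1 from 0.230 to 42.8 CPM. Pdx1 (pancreas) and Nkx2-1 (lung and thyroid) stayed at 0.440 and 0.0444 CPM. Shh reached 0.637 CPM, and its call was lost without ESC KD replicate 1 (2.00), ESC KD replicate 2 (1.97) or EB KD replicate 1 (2.31). Trh fell by 0.46 and Pyy by 1.83, but with the length trend removed Trh was at 0.29 and Pyy at -0.73, and no member was called lower.

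Extraembryonic endoderm genes had 25 higher and 4 lower of 31 tested, with a median of 4.46, or 3.59 with the length trend removed and the same counts. Gata6, the factor that sets this lineage, stood at 0.266, 0.319 and 0.295 CPM in KD ESCs and at 131, 135 and 127 CPM in KD EBs (8.78, SE 0.16, edgeR adjusted p = 4.41e-16). Dab2, an endocytic adaptor of visceral endoderm, went from 0.210 to 220 CPM. Apob, the lipoprotein of yolk sac, went from 0, 0.838 and 0.221 CPM to 159, 153 and 145 CPM. In all 3 genes the EB libraries lay above the ESC libraries. Ttr, transthyretin, had 1 count in the KD ESC libraries and 154, 161 and 157 CPM in KD EBs, against 40.2, 43.1 and 41.3 CPM in WT EBs. Basement membrane chains rose too, Col4a1 from 8.62 to 701 CPM and Lamb1 from 15.5 to 450 CPM. Amn, a partner of the yolk sac receptor Cubn, fell from 13.8 to 2.24 CPM while Cubn rose from 2 counts to 13.4 CPM.

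Neural genes were mixed and mostly low. Of 22 tested neuroectoderm genes 11 rose and 6 fell, and the median of 1.38 became 0.42 with the length trend removed. Sox1, the earliest neural SOX gene, fell from 6.22, 5.39 and 4.20 CPM to 0.484, 0.287 and 0.160 CPM (-4.07, SE 0.42, edgeR adjusted p = 2.31e-07). Pax6, which marks forebrain and spinal cord progenitors, stood at 0.404, 0.402 and 0.427 CPM in KD EBs and did not pass. Tubb3, a neuronal tubulin, fell from 62.5 to 11.7 CPM and Stmn2 from 460 to 66.3 CPM. Sox1, Pax6, Tubb3 and Stmn2 were thus low or falling, while 11 of the 22 genes of the list rose. Nes rose as well, but stood at -0.11 with the length trend removed. Irx3, also a gene of mesoderm, rose from 0.691 to 43.1 CPM. WT EBs held Sox1 at 1.74, 1.43 and 1.52 CPM, and the difference of the changes was -2.75 (SE 0.55, edgeR adjusted p = 0.00204).

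Of 13 tested neural crest genes 8 rose and 2 fell. Msx1, also a mesoderm gene, rose from 0.187 to 215 CPM, Snai2 from 0.454 to 46.9 CPM and Sox9 from 0.201 to 19.3 CPM. Sox10, the defining crest factor, did not pass, at 0.872 and 0.383 CPM, while WT EBs reached 6.85, 5.88 and 6.38 CPM (difference -3.92, SE 0.86, edgeR adjusted p = 0.00437). With the length trend removed, and also without ESC WT replicate 2, 4 members were lower.

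Epithelial genes had 12 higher and 6 lower of 21. Krt8, a keratin of simple epithelia, stood at 16.5, 15.1 and 16.4 CPM in KD ESCs and at 1060, 1130 and 1120 CPM in KD EBs (6.11, SE 0.09, edgeR adjusted p = 9.92e-17). Its partner Krt18 rose from 10.8 to 615 CPM, and Dsp, of desmosomes, from 9.45 to 408 CPM. Cldn4 fell from 110 to 17.2 CPM. Cdh1, E-cadherin, stood at 170, 157 and 165 CPM and then at 150, 145 and 139 CPM (-0.18, SE 0.06), a small fall that was lost without EB KD replicate 3 (-0.14) and with no filter (-0.15), and was 0.19 with library totals alone and -0.58 with the length trend removed. In WT cells Cdh1 reached 279, 264 and 268 CPM, and the difference was -1.0 (SE 0.08, edgeR adjusted p = 5.68e-07).

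All 10 tested genes of the mesenchymal transition rose. Cdh2, N-cadherin, stood at 2.57, 1.76 and 1.95 CPM in KD ESCs and at 231, 238 and 239 CPM in KD EBs (6.82, SE 0.15, edgeR adjusted p = 3.03e-15). Zeb2, a repressor of Cdh1, had 2 counts over the ESC group and 35.7, 31.9 and 36.9 CPM in EBs. These genes are long, with a median exon length of 6930 bases, and with the length trend removed 9 were higher and 1 lower. The exception was Fn1, fibronectin, which rose from 863, 861 and 935 CPM to 2100, 2080 and 2060 CPM (1.23, SE 0.08) but stood at -0.21 with that trend removed. In WT cells Cdh2 reached 78.1, 64.8 and 66.7 CPM, and its change was 2.08 smaller (SE 0.21, edgeR adjusted p = 6.93e-06).

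Fibrillar collagens and matrix proteins, which build the space between mesenchymal cells, rose steeply. Of 23 tested 20 rose and 2 fell, with a median of 5.99, or 4.46 with the length trend removed. Col3a1 (chr1:45311538-45349706), the type III chain of soft tissue, had 0 counts in the 3 KD ESC libraries and stood at 701, 730 and 735 CPM in KD EBs, at least 17970-fold higher. Postn, periostin, went from 0 counts to 135, 130 and 130 CPM, at least 3280-fold. Lum, a collagen-binding proteoglycan, went from 0 counts to 34.9, 35.9 and 32.9 CPM, at least 859.7-fold. These 3 genes were silent in ESCs at this depth and uniform across the EB libraries. In WT EBs Col3a1 stood at 11.5, 7.31 and 9.56 CPM, Postn at 5.29, 5.61 and 5.68 CPM and Lum at 0.703, 0.351 and 0.7 CPM. The test of the difference passed for Col3a1 and Lum (edgeR adjusted p = 0.0177 and 0.0158) and not for Postn (edgeR adjusted p = 1), whose ESC libraries were at 0 in both genotypes; the fitted size of such a difference depends on the prior count. The call was lost without ESC WT replicate 2 for Col3a1 (6.19 in place of 11.85) and Lum (5.81 in place of 8.74), and for Col3a1 also with a replicate block (edgeR adjusted p = 0.0597). Col1a1, the main type I chain, rose from 2.67 to 360 CPM, and the test of its difference from WT cells did not pass (-0.38, edgeR adjusted p = 0.228). Col2a1, of cartilage, rose from 8.39 to 17.3 CPM, less than in WT cells by 1.32, and its rise of 1.05 was 0.39 with the length trend removed. Eln and Thy1 fell.

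Hox genes, which encode position along the body axis, were almost silent in ESCs. Of 38 tested 33 rose, all by at least 1 log2 unit, and 2 fell, with a median of 6.02. Hoxa9, of the trunk, stood at 0, 0.319 and 0 CPM in KD ESCs and at 51.6, 54.2 and 52.8 CPM in KD EBs (8.90, SE 0.48, edgeR adjusted p = 4.86e-10). Hoxa13, the last gene of its cluster, had 1 count in ESCs and 23.1, 22.3 and 21.4 CPM in EBs. Hoxd13 went from 0.444, 0 and 0.295 CPM to 20.5, 20.5 and 21.0 CPM. Posterior genes of the A and D clusters were thus on at day 6. Hoxb13 fell from 2.97, 5.55 and 3.72 CPM to 0.0538, 0.115 and 0 CPM and Hoxc13 from 10.3 to 3.33 CPM. The change was larger in KD than in WT cells for 15 of the 38 genes and smaller for 2. Hoxd13 reached 1.90, 1.81 and 2.39 CPM in WT EBs (log2 difference 4.64, SE 0.61, edgeR adjusted p = 6.38e-05), and Hoxa13 2.06, 1.35 and 1.14 CPM (5.50, SE 1.38, edgeR adjusted p = 0.00916). The call for Hoxa13 was lost without ESC WT replicate 1 (5.21) or ESC WT replicate 3 (5.05). Hoxa11, Hoxb3, Hoxd3 and Hoxd4 share 35.0% to 62.9% of their exon bases with other genes, so their counts are uncertain.

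**Figure D4:**
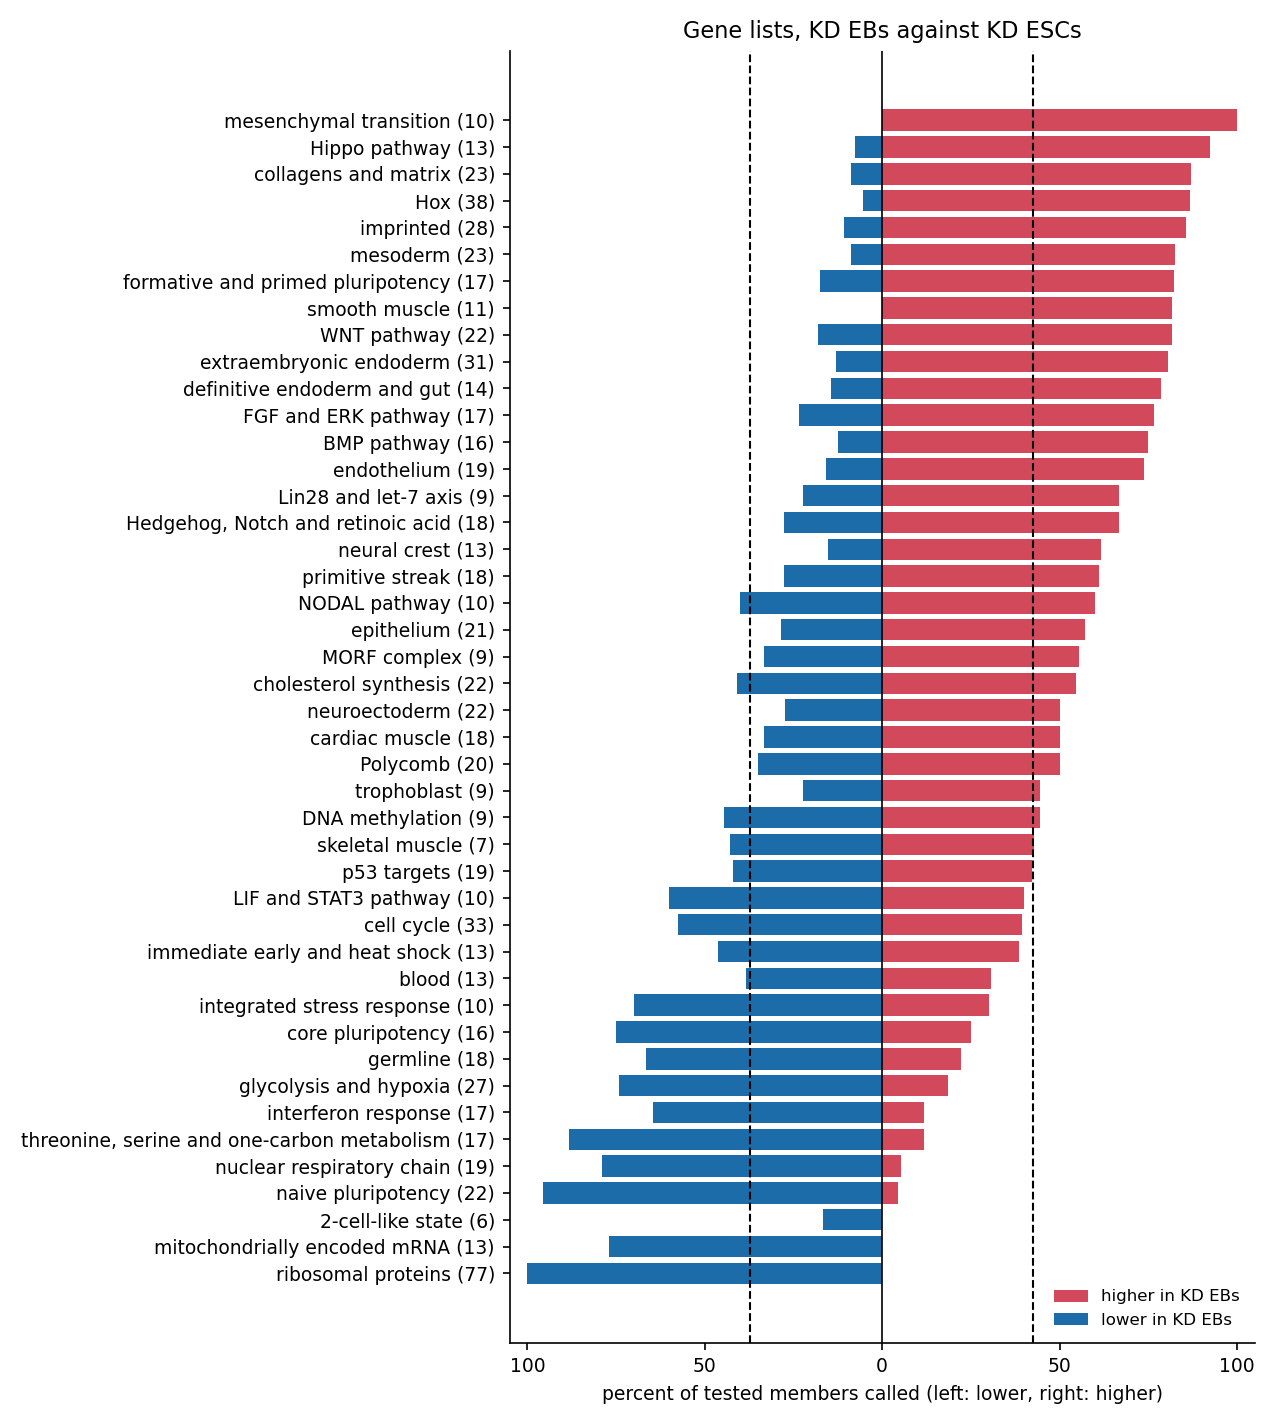
Share of the tested members of each gene list called higher (right) or lower (left) in KD EBs, in percent, for lists with at least 5 tested members. Dashed lines mark the background over all tested genes, 42.5% higher and 37.3% lower. Mesenchymal (10 of 10), Hippo (12 of 13) and collagen (20 of 23) genes extend farthest to the right and ribosomal protein genes (77 of 77) farthest to the left.

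Signalling genes showed which pathways changed at the level of their components. LIF signals through Lifr and Il6st to Stat3, whose feedback inhibitor is Socs3. Socs3 fell from 136 to 11.7 CPM (-3.53) and Bcl3, another target, from 82.0 to 3.79 CPM, while Il6st rose from 42.5 to 178 CPM (2.07, or 0.68 with the length trend removed). Lifr rose by 0.98, but stood at -0.34 with the length trend removed. Of the 10 genes tested 4 rose and 6 fell.

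In the FGF and ERK pathway 13 of 17 genes rose and 4 fell. Fgf4, the ligand of naive cells, fell from 280 to 10.8 CPM, and the receptors Fgfr2 and Fgfr3 rose from 1.21 to 83.8 CPM and from 0.952 to 40.5 CPM. The feedback genes Dusp4, Dusp6 and Spry4 rose by 4.66, 2.68 and 1.77, and Etv5 fell by 2.28. In the WNT pathway 18 of 22 rose and 4 fell. Wnt5a, a non-canonical ligand, rose from 0.286 to 103 CPM, Dkk1, an inhibitor, from 0.239 to 30.0 CPM and Rspo3, an amplifier of WNT signals, from 0 counts to 16.4 CPM. Axin2, the common target, rose from 14.4 to 47.1 CPM, while Notum, a deacylase that inactivates WNT, fell from 32.6 to 2.17 CPM.

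NODAL genes were divided, 6 higher and 4 lower of 10. Nodal, the ligand, fell from 98.9 to 21.7 CPM, and the intracellular Smad3 rose from 8.05 to 81.9 CPM. Lefty1, its inhibitor, rose from 8.38 to 12.2 CPM in KD cells, a call lost without ESC KD replicate 3 (0.39) and a value of 1.09 with the length trend removed, and the difference from WT cells was 2.99. BMP genes had 12 higher and 2 lower of 16, and 4 lower with the length trend removed. The ligands Bmp2 and Bmp4 rose from 0.202 to 40.7 CPM and from 23.3 to 111 CPM, the Id1, Id2 and Id3 targets by 2.87, 5.57 and 3.06, and the inhibitor Smad6 by 3.97. The antagonists Nog and Bmper rose to 8.19 and 13.1 CPM, less than in WT cells, with differences of -4.32 and -4.83. That of Nog was -7.78 without ESC WT replicate 1, and the call for Bmper was lost without ESC KD replicate 3 (-4.05) or ESC WT replicate 1 (-4.9). Of the Hedgehog, Notch and retinoic acid genes 12 of 18 rose and 5 fell, led by Cyp26a1, which degrades retinoic acid, from 0.247 to 62.2 CPM, and by Ptch1, a Hedgehog target, from 16.0 to 175 CPM (3.45, or 1.83 with the length trend removed).

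In the Hippo pathway 12 of 13 genes rose and 1, Tead4, fell by 0.67. Amot, angiomotin, which binds YAP, stood at 1.47, 1.52 and 0.811 CPM in KD ESCs and at 1670, 1600 and 1580 CPM in KD EBs (10.33, SE 0.14, edgeR adjusted p = 4.49e-17). WT EBs stood at 1000, 968 and 968 CPM. The YAP targets Ccn1 and Ccn2 reached 81.5 and 27.2 CPM, with changes 1.26 and 1.17 below those in WT cells.

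Chromatin genes were divided in direction. Of 20 Polycomb genes 10 rose and 7 fell, and 8 rose and 10 fell with the length trend removed, where the median of 0.34 became -0.03. Eed, a core subunit of PRC2, fell by 1.27 and Phc1, of PRC1, by 1.70, while Suz12 did not pass (-0.04) and Ezh2 rose by 0.60 but stood at -0.19 with the length trend removed. Bmi1, of PRC1, rose by 2.45. Among 9 DNA methylation genes 4 rose and 4 fell, and with the length trend removed 4 rose and 5 fell and the median turned from 0.06 to -0.85. Dnmt3l, the cofactor of de novo methylation, stood at 293, 291 and 287 CPM in KD ESCs and at 24.1, 21.8 and 22.3 CPM in KD EBs (-3.68, SE 0.07, edgeR adjusted p = 3.4e-16), close to WT EBs at 21.6, 20.8 and 22.9 CPM. Tet3 rose from 4.58 to 90.9 CPM while Tet2 fell by 1.04 (4.31 and -1.04, or 2.54 and -2.82 with the length trend removed), and Uhrf1, which recruits Dnmt1, fell from 612 to 257 CPM.

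Imprinted genes rose to very high levels. Of 28 tested 24 rose and 3 fell, with a median of 3.90, and their summed level went from 329 to 350 CPM in ESC libraries to 17500 CPM in EB libraries. Igf2 (chr7:142650766-142666816), a fetal growth factor, stood at 0.178, 0.319 and 0.626 CPM in KD ESCs and at 5160, 5320 and 5460 CPM in KD EBs (13.73, SE 0.23, edgeR adjusted p = 2.68e-15). Its neighbour H19 (chr7:142575529-142578143), a non-coding RNA of the other parental allele, went from 2.13, 1.80 and 1.92 CPM to 1450, 1570 and 1580 CPM. Peg10 reached 3170 CPM, Mest 2440 CPM, Peg3 2400 CPM and Igf2r, the receptor that clears IGF2, 1310 CPM. Several imprinted genes thus reached more than 1000 CPM at once. In WT EBs Igf2 stood at 3420, 3480 and 3400 CPM and H19 at 1040, 1030 and 1030 CPM, and the differences of the changes were 2.11 (edgeR adjusted p = 0.00169) and 2.40 (edgeR adjusted p = 5.86e-07). The EB levels alone differed by less than this between the genotypes. The rest of each difference lay in the ESC levels, which for Igf2 were near 0 in KD cells. Cdkn1c, an inhibitor of the cell cycle, rose less in KD cells, to 12.7, 12.7 and 13.7 CPM against 134, 137 and 138 CPM in WT EBs (log2 difference -1.52, SE 0.22, edgeR adjusted p = 0.000151). The EB levels of Cdkn1c differed by more than this between the genotypes, and the rest of that gap lay in the ESC levels. Ascl2, Plagl1 and Slc22a18 fell. Counts do not separate the parental alleles.

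Of 33 cell cycle genes 13 rose and 19 fell, and 7 rose and 21 fell with the length trend removed. Ccne1, the cyclin of S phase entry, fell from 244 to 49.7 CPM, and the replication helicase genes Mcm2, Mcm3, Mcm5, Mcm6 and Mcm7 fell by 0.88 to 1.53 while Mcm4 rose by 0.45. Ccnd2 rose from 0.726 to 25.5 CPM as Ccnd3 fell from 400 to 159 CPM and Ccnd1 from 108 to 51.9 CPM. Falls of Ccnd3 and Mcm2 were deeper with the length trend removed, -2.46 in place of -1.33 and -1.72 in place of -0.88. Cdkn1b, an inhibitor, rose from 14.6 to 86.3 CPM. Mki67 rose by 1.27 and stood at -0.02 with the length trend removed. Of 19 p53 genes 8 rose and 8 fell, and 5 rose and 12 fell with that trend removed; their median was -0.15, and 0.22 with library totals alone. Trp53 fell by 0.70, Cdkn1a by 1.06 and Bax by 2.39.

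Glycolysis genes fell. Of 27 genes of glycolysis and hypoxia 20 fell and 5 rose, with a median of -1.93, and their summed level went from 27000 to 27500 CPM to 8120 to 8410 CPM. Ldha, lactate dehydrogenase, stood at 2670, 2700 and 2700 CPM in KD ESCs and at 615, 637 and 638 CPM in KD EBs (-2.09, SE 0.06, edgeR adjusted p = 3.05e-14). Aldoa fell from 5400 to 508 CPM and Eno1 from 5070 to 1020 CPM. With the length trend removed 3 rose and 19 fell. The glucose transporter Slc2a1 rose from 436 to 862 CPM, and Slc2a3, another, rose by 0.26 but stood at -0.64 with the length trend removed. The fall was deeper, or the rise smaller, than in WT cells for 19 of the 27 genes and the reverse for 2. Pgk1 stood at 379, 379 and 395 CPM in KD EBs and at 748, 745 and 752 CPM in WT EBs (log2 difference -1.22, SE 0.15, edgeR adjusted p = 6.09e-05), and Slc16a3, the lactate exporter, fell by 3.06, with a difference of -2.10.

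Of 19 tested nuclear genes of the respiratory chain 15 fell and 1 rose, with a median of -1.41, or -1.43 with the length trend removed. Cox4i1 fell from 1240 to 206 CPM. Uqcrc1 did not pass and varied widely between replicates, at 15.0, 12.4 and 48.2 CPM in ESCs and 30.5, 2.38 and 2.19 CPM in EBs. Of 13 mRNAs of the mitochondrial genome 10 fell and 0 rose, but with the length trend removed 5 fell and 4 rose, and with library totals alone 7 fell and 2 rose, so that family has no stable direction here. mt-Co1 was at 5440 and 6310 CPM and did not pass. Mitochondrial counts were 1.57% to 1.70% of the total in KD ESCs and 1.53% to 1.66% in KD EBs.

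Every one of 77 ribosomal protein genes fell, each by at least 1 log2 unit, with a median of -2.12. Together they took 177000 to 187000 CPM in ESC libraries and 41300 to 43700 CPM in EB libraries. Rplp1, an acidic stalk protein, stood at 7310, 7330 and 6940 CPM in KD ESCs and at 749, 820 and 835 CPM in KD EBs (-3.17, SE 0.20, edgeR adjusted p = 2.62e-08). Rps6, with the pyrimidine start printed above, stood at 2940, 2930 and 2940 CPM and then at 966, 985 and 996 CPM (-1.58, SE 0.06, edgeR adjusted p = 5.7e-13). The genes are short, with a median exon length of 1770 bases, and with the length trend removed 75 fell and 0 rose, with a median of -1.62, and Rplp1 and Rps6 at -2.03 and -0.95. The WT median was -2.03. The change in KD cells was below that in WT cells for 8 of the 77 genes, near the 10.2% of all tested genes. It was above for 0, against 12.8% of all tested genes. Processed copies share sequence with many of these genes, so single counts are uncertain.

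Cholesterol synthesis genes were divided, 12 higher and 9 lower of 22, and 8 higher and 10 lower with the length trend removed, where the median of 0.40 became -0.11, but 13 of the 22 changed less upward in KD than in WT cells, and 2 more. Idi1, which isomerizes isopentenyl diphosphate, rose by 2.17, and Pmvk, phosphomevalonate kinase, fell by 1.78. Of 17 genes of threonine, serine and one-carbon metabolism 15 fell and 2 rose. Tdh, threonine dehydrogenase, on which mouse ESCs depend, stood at 646, 625 and 640 CPM in KD ESCs and at 40.7, 39.7 and 37.4 CPM in KD EBs (-4.02, SE 0.09, edgeR adjusted p = 2.98e-15). WT EBs held only 2.92, 3.10 and 2.17 CPM, and the difference of the changes was 4.03 (SE 0.13, edgeR adjusted p = 3.9e-11). Gldc, which cleaves glycine, rose from 71.1 to 192 CPM and Shmt2 fell from 547 to 99.2 CPM.

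Genes of the cell's stress responses changed in both directions. Of 10 genes of the integrated stress response 7 fell and 3 rose: Asns went from 961 to 84.3 CPM, Ddit3 from 62.0 to 7.85 CPM and Atf4 from 334 to 107 CPM (-1.64, or -1.08 with the length trend removed). Of 13 immediate early and heat shock genes 5 rose and 6 fell, with Egr1 rising from 0.900 to 37.1 CPM, Jun from 6.50 to 109 CPM, and Hspb1 falling from 1660 to 79.2 CPM. Fos rose by 1.20, which is 2.20 less than in WT cells. Of 17 tested interferon response genes 11 fell and 2 rose, among them Ifitm3, from 247 to 21.1 CPM. In the Lin28 and let-7 axis 6 of 9 rose and 2 fell, and 4 rose and 4 fell with the length trend removed, where the median of 1.51 became -0.09. Hmga2, a let-7 target, rose from 74.3 to 606 CPM, Igf2bp3 from 18 to 172 CPM and Lin28b from 2.71 to 24.1 CPM (3.15, or 1.99 with that trend removed).

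Markers of other cell types a culture could hold were checked. Of 11 macrophage genes 3 were tested; Adgre1 was at 0 in every KD library and Ptprc at 0 in KD EBs, and the list's summed level of 49.6 to 57.4 CPM in ESCs and 4.81 to 5.26 CPM in EBs was mostly Cd68 (52.6 and 3.46 CPM). Of 15 trophoblast genes 9 were tested, with 4 higher and 2 lower; Prl3d1, of giant cells, was at 0, and Cdx2, also a gene of posterior mesoderm and gut, rose from 3.13 to 57.1 CPM. Of 18 tested germline genes 12 fell and 4 rose, or 2 with the length trend removed, Stra8 from 10.1, 11.1 and 12.5 CPM to 0.0538, 0.0861 and 0.0533 CPM. Prdm1, which is also expressed in endoderm, rose from 1.38 to 13.0 CPM. Of 7 tested skeletal muscle genes 3 rose and 3 fell, with a summed level of 237 to 250 CPM in ESCs and 34.9 to 37.7 CPM in EBs. Their defining factors Myod1 and Myog were at 0.0547 and 0.0983 CPM in KD EBs and did not pass the filter.

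Some genes crossed from silence to clear expression. In KD cells 67 genes were under 0.1 CPM in all ESC libraries and at 10 CPM or more in all EB libraries, and 5 made the reverse passage. Of the 67, 35 also reached 10 CPM in every WT EB library. Besides those named above, they included the guidance receptor Unc5c, from 0 counts to 143 CPM, the mesenchymal cadherin Cdh11, from 3 counts to 138 CPM, Igf2os, antisense to Igf2, from 2 counts to 124 CPM, the protocadherin Pcdh7 at 70.5 CPM, Bmp5 at 29.7 CPM and the angiopoietin Angpt1 at 12.1 CPM. Igf2os lies over Igf2, and the counting named no strand, so its reads may belong to either. The 5 that went off were Fetub (59.7 to 0.0644 CPM), Cidea, Vax2os, Stra8 and the gene model Gm24539. A further ranking took genes with a mean log2 CPM of at least 2 that kept at least 1 CPM in KD EBs. There the steepest falls were those of Laptm5 (188 to 1.27 CPM), Upp1, uridine phosphorylase (1177 to 13.7 CPM), and Spp1, osteopontin (352 to 4.58 CPM). Ckb, the brain-type creatine kinase, fell from 1772 to 39.3 CPM and Mt1, a metallothionein, from 854 to 19.8 CPM.

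Levels were also scaled by exon length (RPKM), which allows genes to be ranked within a stage. Leaving out ribosomal protein and mitochondrial genes, the highest in KD ESCs besides gene models and pseudogenes were Dppa5a (8084 RPKM), Eef1a1 (3471) and Mif (2459). In KD EBs they were Eef1a1 (3296), Hsp90ab1 (1372), Eef2 (1035) and Igf2 (929). Eef1a1, the elongation factor, changed little in CPM, from 8654 to 8218, while Igf2 stood at 0.0654 RPKM in ESCs.

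The change from ESC to EB was broadly shared with WT cells. In WT cells 15133 genes were called; 13494 were called in both genotypes, which is 89.1% of the KD calls and 89.2% of the WT calls, 13261 in the same direction and 233 in opposite directions. Across the 18975 genes, which are not independent replicates, the log2 differences of KD and WT cells had r = 0.89, and these comparisons share no library. The test of the difference called 4370 genes (23.0%), with the KD change above the WT change for 2430 (12.8%) and below for 1940 (10.2%), and 1620 by at least 1 log2 unit. Above made up 55.6% of these calls, but 35.3% (1457 of 4133) with scaling by library totals alone, so the balance of the directions depends on the scaling. The medians by length bin of this difference lay between 0.00 and 0.08. The trend on length thus does not appear in it.

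The largest differences from WT cells lay partly in these lists and partly outside them. Above WT lay Col3a1 (11.85) and Lum (8.74) of the matrix, Hoxb6 (6.22), the endothelin receptor Ednra (6.44), the insulin receptor substrate Irs4 (7.07) and the protease Adamts1 (6.19), each with 0 counts in KD ESCs, where the fitted size depends on the prior count. Calls were lost without ESC WT replicate 2 for Col3a1 and Lum (6.19 and 5.81), without ESC WT replicate 1 for Hoxb6 (1.86), and without ESC WT replicate 3 or ESC KD replicate 3 for Adamts1 (2.36 and 6.18). Among genes of at least 1 CPM in every group, the largest were Tdh (4.03), Mt1 (3.49), the folate receptor Folr1 (3.48), Scrn1 (3.09), Acvrl1, a receptor of the TGF-beta family (3.06), and the neuropilin Nrp2, with 183 CPM in the KD EBs against 35.1 CPM in WT (2.83). Below WT lay the cartilage collagen Col9a1 (-5.85), Bmper (-4.83), Nog (-4.32) and coagulation factor F5 (-4.01). The neighbouring methyltransferase genes Bhmt and Bhmt2 also lay below, with differences of -4.54 and -3.38 and Bhmt at 0 counts in KD EBs. The call for Bhmt was lost in 10 settings, among them without EB WT replicate 2 (-3.04), and that for Col9a1 without ESC KD replicate 2 (-4.61). Among genes of at least 1 CPM, Gadd45b, a stress gene, had 9.16 CPM in the KD EBs against 72.3 CPM in WT (-2.81), the calcium pump Atp2a3 at 1.54 and 12.9 CPM (-3.11), and Aldoc, an aldolase, at 3.95 and 27.3 CPM (-2.70).

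**Figure D5:**
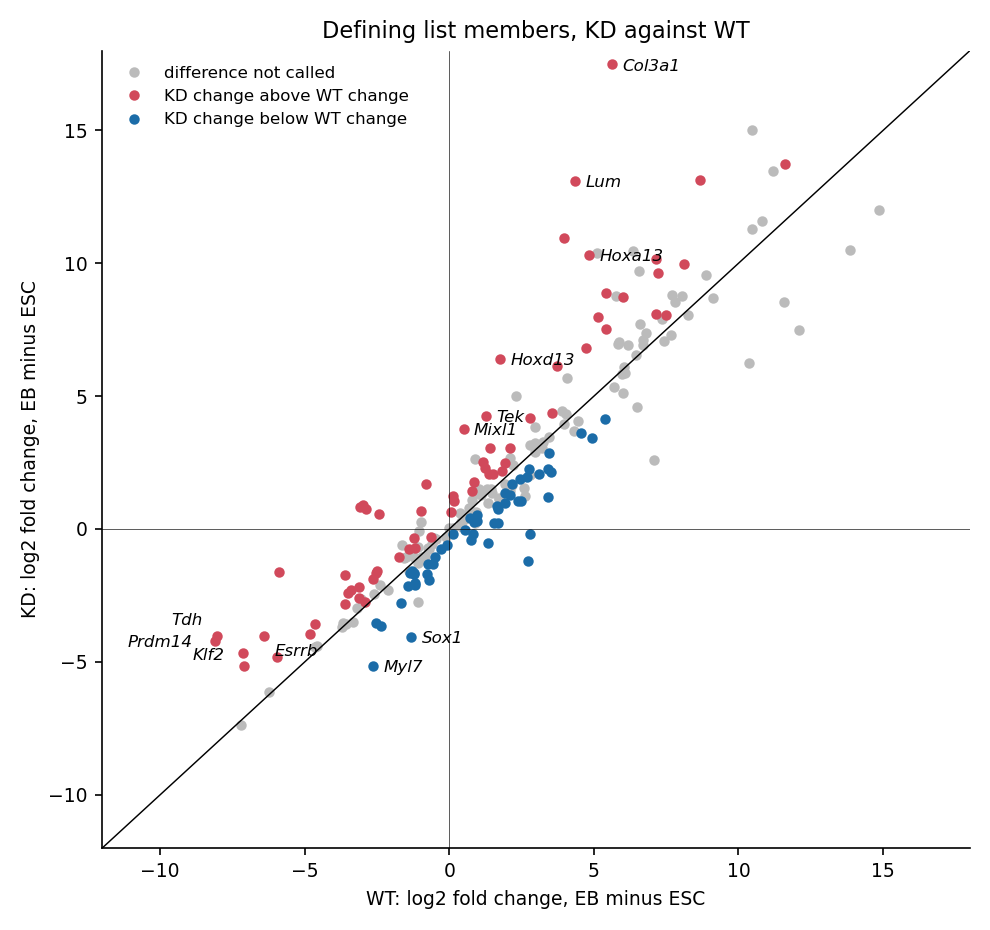
Log2 difference of EBs minus ESCs in WT cells (x axis) and KD cells (y axis), 1 dot per tested defining member of the gene lists, with the line of equal change. Members whose KD change was called above (red) or below (blue) the WT change are coloured: Col3a1, Lum, Tdh and Prdm14 lie above the line, and Sox1 and Myl7 below it; fitted values of genes at 0 counts depend on the prior count.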

How the data were processed

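Poly-T selected RNA of 12 libraries of E14 cells was measured by paired-end sequencing. The authors deposited unnormalized gene counts, with ESCs and EBs in separate tables. Reads were aligned to mm10 by HISAT2 2.1.0 and counted by featureCounts 2.0.3, and DESeq2 1.18.1 was listed, per the submitters' processing notes. The annotation, per the file headers, was Ensembl on GRCm38, both ends had to map, chimeric pairs were left out, and no strand or pair-counting option was set, so each mate entered the counts: 61.7% to 68.7% of counts from 1 to 10 are even. How multiply aligned reads were treated is not given in the sources used here.

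Both tables hold the same 52636 genes, 52403 with a symbol. edgeR 4.0.16 in R 4.3.3 (quasi-likelihood F-test, robust, TMM, filterByExpr with a minimum count of 10 and a total of 15) was fitted to all 12 libraries in 4 groups, with Benjamini-Hochberg adjustment over 18975 genes and a threshold of 0.05. The script was tested on simulated data. The series states biological replicates. Same-numbered ESC and EB libraries did not deviate together (r -0.026 to -0.011 in KD cells), so replicate numbers were not treated as pairs. For a gene at 0 counts in a stage, a fold is a bound against 3 counts over the group. Ratios from 1 to 3 counts carry 95% Poisson intervals, which cover counting error only. Because each mate was counted, counts are not independent, so these intervals are too narrow and the bounds may be too high.

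Members and the 45 gene lists (867 genes, 807 tested) were chosen with earlier results of these data known. Genes named are Kat6b, the defining members of each list, the 15 largest rises and falls at a mean log2 CPM of at least 2, the 10 largest differences from WT cells in each direction, the 10 highest length-scaled levels per stage, each list's largest called rise and fall, and genes passing from under 0.1 to at least 10 CPM or back. Further list members and genes of at least 1 CPM in all groups, or in the lower KD stage, were added after their values were seen. Alternatives were the KD libraries alone, a replicate block, DESeq2 1.42.0, library totals or DESeq2 size factors for scaling, no filter, each library left out, and, chosen after seeing the data, trends on exon length and GC content removed. A few list members are counted in their lists and not reported here by name.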

Additional observations from a re-analysis of the deposited data

Results flagged for a closer look

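The change from ESC to EB was looked at here for the defining list members and the 10 largest differences from WT cells in each direction. In 77 of them the KD change differed from the WT change by at least 1 log2 unit, past the edgeR test of the difference itself. Of these, 48 lay above WT and 29 below. Genes named only by the other rules are not counted here. Values are log2 differences of the changes, KD minus WT, over 3 libraries a group. Where a stage of one genotype is at or near 0 counts the fitted size depends on the prior count. Genes expressed in pluripotent cells gave the values Esrrb (2.40), Klf2 (2.47), Prdm14 (3.89), Zfp42 (1.08), Dppa3 (3.63), Dppa5a (1.93), Tdgf1 (1.15), Tdh (4.03), Etv5 (1.10), Pou3f1 (-1.34) and Dnmt3b (-1.01). Genes of the 2-cell-like state and the germline gave the values Zscan4c (3.93), Zscan4d (3.88), Dazl (1.89), Nanos3 (4.26) and Rbm46 (7.14). Genes of streak, mesoderm and NODAL signalling gave the values T (1.03), Mixl1 (3.29), Gsc (1.66), Mesp1 (-2.96), Twist1 (2.09), Isl1 (2.83) and Lefty1 (2.99). Genes of muscle gave the values Myl7 (-2.49), Myh6 (-1.46), Cnn1 (-1.42) and Pgm5 (5.89). Genes of vessels and blood gave the values Flt1 (2.73), Tek (2.99), Pecam1 (-1.08), Runx1 (1.61) and Spic (6.88). Genes of endoderm and coagulation gave the values Ttr (4.49), Dab2 (1.85) and F5 (-4.01). Genes of ectoderm, crest and epithelium gave the values Sox1 (-2.75), Tubb3 (1.07), Sox10 (-3.92), Tfap2a (-1.17) and Cdh1 (-1.0). Genes of mesenchyme and matrix gave the values Cdh2 (2.08), Zeb1 (1.36), Zeb2 (2.98), Fn1 (1.11), Col3a1 (11.85), Lum (8.74), Dcn (7.0), Col2a1 (-1.32), Col9a1 (-5.85) and Adamts1 (6.19). Genes of body position gave the values Hoxa9 (3.49), Hoxa13 (5.50), Hoxb6 (6.22), Hoxb9 (2.50), Hoxc9 (2.43), Hoxd13 (4.64) and Cdx2 (1.41). Imprinted genes gave the values H19 (2.40), Igf2 (2.11), Cdkn1c (-1.52) and Ascl2 (-1.31). Genes of signalling and stress gave the values Nog (-4.32), Bmper (-4.83), Ccn1 (-1.26), Ccn2 (-1.17), Ednra (6.44), Irs4 (7.07), Fos (-2.20), Hspa1a (-1.87), Neurl1b (-3.31) and Amer3 (-5.64). Genes of metabolism and transport, with the nuclear protein gene Aff2 beside them gave the values Pgk1 (-1.22), Bhmt (-4.54), Bhmt2 (-3.38), Slc13a4 (-3.29), Slc28a2 (5.83) and Aff2 (-4.85). The call was lost in 14 of the other settings for T, in 13 for Hoxa9, in 12 for Isl1 and Rbm46, and in 10 for Amer3 and Bhmt. Leaving out 1 library moved the value by more than 1.5 times for Adamts1 (without ESC WT replicate 3, 2.36), Amer3 (without ESC KD replicate 2, -2.74), Col3a1 (without ESC WT replicate 2, 6.19), Dcn (without ESC WT replicate 3, 4.06), Hoxa9 (without ESC KD replicate 2, 8.32), Hoxa9 (without ESC WT replicate 1, 1.58), Hoxb6 (without ESC WT replicate 1, 1.86), Hoxc9 (without ESC KD replicate 3, 4.21), Lum (without ESC WT replicate 2, 5.81), Nog (without ESC WT replicate 1, -7.78), Pgm5 (without ESC KD replicate 2, 8.86), Rbm46 (without ESC WT replicate 1, 0.93), Slc28a2 (without ESC KD replicate 1, 8.82), Twist1 (without ESC WT replicate 3, 1.33) and Zeb2 (without ESC KD replicate 3, 5.95).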

How the results depend on the processing

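Depth and 3 libraries a group limit calls at low counts. With libraries scaled by their totals, genes with a KD change above the WT change fell from 2430 to 1457. That setting moves the median of all genes to 0.52. The count of genes changed between KD stages was 15142 and stayed within 1.5 times of this in every setting run: 14844 from the KD libraries alone, 15341 with DESeq2, 15720 with no filter, 14594 with the length trend removed and 14395 with the GC trend removed as well. With a replicate block, the KD stages differed in 14910 genes, 11027 of them by at least 1 log2 unit, and the difference from WT cells was called in 4023 genes. Leaving out each library in turn gave 14640 to 15874 genes between KD stages, 11005 to 11655 by at least 1 log2 unit, and 3389 to 5507 for the difference, the highest without ESC WT replicate 2, with 1833 to 2795 above and 1496 to 2712 below. The KD libraries alone give no value for the difference. The turns of sign listed next cover the 387 genes called in KD cells that were defining members or named by a fixed rule. List members outside that set, such as Trh, were not included. Log2 changes that turned sign with length and GC trends removed were those of Ccna2 (-0.13), Ccng1 (-0.3), Ezh1 (-0.18), Ezh2 (-0.58), Fth1 (0.56), Hes1 (0.3), Hmga1 (0.15), Hmgcs1 (-0.03), Igf2bp2 (-0.0), Lifr (-0.73), Mdm2 (-0.41), Mki67 (-0.2), Ndufs1 (-1.07), Slc2a3 (-0.75) and Tmsb10 (0.14). Log2 changes that turned sign with library size only were those of Ccnb1 (0.06), Cdh1 (0.19), Hes1 (0.08), Igf2bp1 (0.0), Sqle (0.2), Tbx3 (0.03) and mt-Cytb (0.05). Log2 changes that turned sign with length trend removed were those of Ezh1 (-0.41), Ezh2 (-0.19), Fn1 (-0.21), Fth1 (0.46), Hes1 (0.13), Igf2bp2 (-0.09), Lifr (-0.34), Mdm2 (-0.19), Mki67 (-0.02), Ndufs1 (-0.75), Nes (-0.11), Slc2a3 (-0.64), mt-Atp6 (0.09) and mt-Cytb (0.55). The cause was not tested beyond what each setting removes. Of 387 named genes called in KD cells, 342 kept direction and call in all settings. The difference from WT cells was less stable: of 196 named genes called for it, 139 kept direction and call in all settings that give it.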

Other observations

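Genes of the X chromosome had a median log2 difference of 0.92 between EBs and ESCs in KD cells and 1.02 in WT cells, the highest of the chromosomes, and those of chromosome 17 had the lowest in KD cells, -0.43. With the tested genes in 10 equal bins by GC content, the median in KD cells was 1.11 for the lowest bin, -0.59 for the ninth and -0.56 for the highest.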
